A study of Vitis vinifera with 27 samples.

Results

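The change of mid-shoot latent buds of grapevine (Vitis vinifera cv. Merlot) from BBCH77, the stage of cluster closure, to BBCH90, harvest, was measured by RNA-Seq at node 5, the fifth bud position along the shoot. The comparison used every library that the labels assign to node 5 at BBCH77 or BBCH90, which gave 6 of the 27 libraries, 3 at each stage. The same step was measured at node 2, near the base of the shoot, in 6 other libraries, so that the changes of each gene at nodes 5 and 2 could be compared. Node 10 and the stage BBCH63, anthesis, were sampled as well, and 24 libraries entered the fit because replicate 3 of node 10 was left out at each stage. All vines were Merlot grafted onto Kober 5BB rootstock in 1 vineyard and season, and each replicate was a separate pool of buds excised from one node. Each stage was 1 sampling session, in July for BBCH77 and in October for BBCH90, so the stage and the calendar date cannot be told apart. Dormancy itself was not measured, and BBCH90 is used here as the name of the stage only.

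A latent bud of grapevine forms in the axil of a leaf in one season and opens in the next. During the first summer its meristem produces leaf primordia and uncommitted primordia, which can become inflorescence primordia, and the bud then stops growing under its scales and becomes dormant. Homologues of Arabidopsis flowering genes act in this transition, while a cuticle, phenolic compounds and stored sugars are among the features by which buds are protected through winter.

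Between 38693758 and 53307172 reads were counted on genes in the 6 libraries of node 5, and between 34531620 and 53307172 in the 24 libraries of the fit. Of 35134 genes in the table, 22999 had enough counts to be tested, and 189 could be given a product name, all of which were tested. BBCH77 node 2 replicate 3 stood apart from its group. Across the 3000 most variable genes, which are not independent replicates, its Pearson correlation was 0.146 with the other libraries of its own group and 0.892 with node 10 at the same stage. The comparison with node 2 rests on it and is given with and without it. Of the node 5 libraries, BBCH77 replicate 2 correlated at 0.845 with the rest of node 5 and 0.873 with node 10 at BBCH77, BBCH90 replicate 3 at 0.819 and 0.877 with those of BBCH90, and each of the other 4 was closest to its own group. One library outside the fit, BBCH90 node 10 replicate 3, held the same counts as BBCH63 node 2 replicate 2 at all 35134 genes.

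A large part of the transcriptome of node 5 buds changed between the stages, and most of the changed genes fell. A gene was called when its p from the quasi-likelihood test of edgeR, adjusted for all tested genes (Benjamini-Hochberg), was under 0.05 and its change was at least 2-fold. By this rule 2295 genes rose (9.98% of those tested) and 5185 fell (22.5%), 7480 in all (32.5%), so that 69.3% of the calls were falls. The median log2 fold change over all tested genes was -0.01. In the 3 libraries of each stage, levels did not overlap for 5112 of the falls and 2238 of the rises, against 35.1% of all tested genes that did not overlap and were lower, 33.5% that were higher and 68.7% in either direction. Buds are mixed tissue, and fewer cells of a type and less RNA per cell cannot be told apart in these values.

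The falls were also deeper than the rises were high. Their median log2 fold change was -2.29, or -2.20 when genes without any count at one stage were set to 3 counts per library, and that of the rises was 1.44. With that floor, 2933 falls (56.6%) and 573 rises (25%) reached 4-fold, and 747 falls and 102 rises reached 16-fold. No count was left in any BBCH90 library for 243 of the falls, whereas 8 of the rises had none at BBCH77. The genes that fell had a median level of 5.43 CPM (counts scaled to the library's total, after TMM normalization) at BBCH77 and 0.873 at BBCH90. The genes that rose went from a median of 8.94 to 28 CPM.

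The genes that rose, though fewer, held more of the reads at BBCH90. They took between 8.67% and 9.09% of all counts in the 3 BBCH77 libraries and between 26.2% and 30.6% in the 3 BBCH90 libraries. The share of the genes that fell was between 17.7% and 18% at BBCH77 and between 3.3% and 4.65% at BBCH90. Because these shares were computed on the genes called in the same libraries, they describe the change and do not test it. The number of genes with at least 10 counts was between 21994 and 22178 at BBCH77 and between 19947 and 20560 at BBCH90, while the BBCH77 libraries also had the higher totals.

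Among annotated genes the deepest fall was that of Vitvi18g02126, beta-amyrin 28-monooxygenase-like, whose enzyme family oxidises triterpenes. Its levels were 15.4, 16 and 16.2 CPM at BBCH77 and 0, 0 and 0.0878 CPM at BBCH90. It went from 2643 counts to 3 over the 3 libraries of a stage, a 592-fold difference with a 95% counting interval of 202 to 2874, and the fitted log2 fold change was -9.05 ± 0.44 (SE, n = 3 per stage, edgeR adjusted p = 1.12e-10). Vitvi04g01007, a GDSL esterase/lipase of a family that includes enzymes of cutin formation, had 97.2, 103 and 99 CPM at BBCH77 and 0.0744, 0.0536 and 0.79 CPM at BBCH90. Both genes were nearly silent in the BBCH90 libraries and even in the 3 at BBCH77.

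Vitvi07g01843, alkane hydroxylase MAH1, which in Arabidopsis oxidises wax alkanes, fell from 22, 22.4 and 24.2 CPM to 0, 0.0268 and 0.234 CPM. Xyloglucan endotransglucosylase/hydrolase 2 (Vitvi05g01266), of a family that remodels cell wall xyloglucan, fell from 44.8, 59 and 52.7 CPM to 0.422, 0.349 and 0.644 CPM. Their log2 fold changes were -8.40 for the esterase/lipase, -8.09 for MAH1 and -6.79 for the xyloglucan enzyme. The 8 deepest falls were sought among annotated genes with at least 10 CPM at BBCH77 and no overlap between stages. The others of these 8 were a pair of glycine-rich protein 5-like genes (Vitvi07g02317 and Vitvi07g02318, -6.93 and -6.74), proline-rich protein 4-like (Vitvi03g01389, -6.82) and a myb-related protein gene (Vitvi01g01052, -6.49). Genes of lower level were left out, such as a hypothetical protein (Vitvi05g04475, -8.00). The glycine-rich pair has the same product name, and how the counting divided reads between similar copies was not tested.

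The largest rise of an annotated gene was that of an acidic endochitinase (Vitvi16g01978), a chitin-degrading enzyme of a kind known from defence. It had 0.143, 0.218 and 0.812 CPM at BBCH77 and 117, 139.7 and 312 CPM at BBCH90, a log2 fold change of 8.88 ± 0.72 (SE, n = 3 per stage, edgeR adjusted p = 1.81e-08). Protein TIFY 10A (Vitvi12g02718), of the JAZ group of jasmonate signalling repressors, went from 3.36, 4.58 and 3.71 CPM to 388, 445 and 391.9 CPM. The BBCH90 levels of both genes were far above every BBCH77 level, and TIFY 10A was the more even within its stage.

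Cytochrome P450 78A4 (Vitvi01g01644) rose from 4.39, 1.63 and 1.85 CPM to 131, 160.0 and 208 CPM. Early nodulin-75-like (Vitvi05g01943), a proline-rich protein, rose from 4.9, 4.9 and 5.77 CPM to 470.3, 278 and 240.1 CPM. The log2 fold changes were 6.71 for TIFY 10A, 6.0 for the P450 and 5.99 for the nodulin-like gene. Among annotated genes with at least 10 CPM at BBCH90 and no overlap between stages, 4 further rises came next. They were a hypothetical protein (Vitvi03g04204, 4.28), organic cation/carnitine transporter 3-like (Vitvi19g01748, 3.62), cytochrome P450 82C4 (Vitvi03g00413, 3.59) and IAA9 (Vitvi11g00497, 3.48). Genes of lower level were left out, such as nuclear transcription factor Y subunit B-5-like (Vitvi05g00299, 4.25). A further gene annotated as P450 82C4 exists, so reads of that pair may have been divided between copies.

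**Figure D1:**
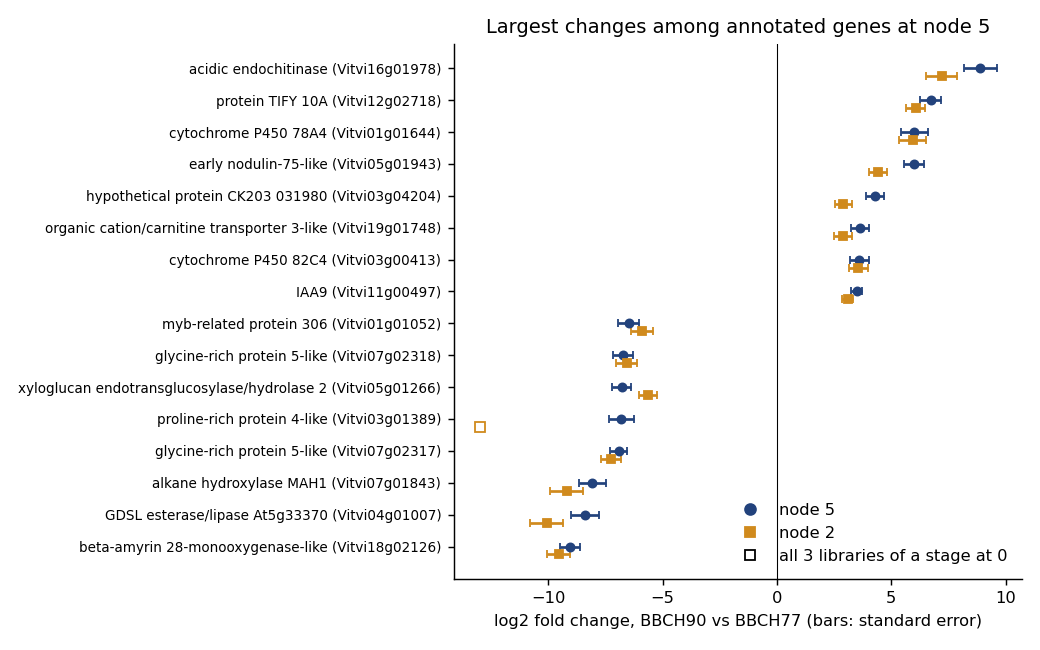
Log2 fold change from BBCH77 to BBCH90 (x axis) of the 8 annotated genes that rose most and the 8 that fell most at node 5 (y axis). Only annotated genes with at least 10 CPM at the higher stage and no overlap between stages were ranked. Circles are node 5, squares node 2 and bars the standard error. The open square marks proline-rich protein 4-like at node 2, which had 0 counts in all 3 BBCH90 libraries, so that its fitted value depends on the prior count. At node 5 the values run from -9.05 to 8.88, and each gene has the same sign at both nodes. The study had listed all of these genes for moving alike at every node, so the shared sign was fixed by that choice.

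Large changes were also found among genes for which no product name was at hand. Vitvi05g01933 rose from 9.59, 18.5 and 15.7 CPM to 8842, 9975 and 12865 CPM, a log2 fold change of 9.50, and its lowest BBCH90 level exceeded that of every other gene named here. Vitvi05g02156 had 0 counts in the 3 BBCH77 libraries and 26.8, 27 and 17.6 CPM at BBCH90, which made it at least 387-fold higher against a floor of 3 counts per library. Vitvi04g01274 went from 18.2, 18.3 and 16 CPM to 0 counts in the 3 BBCH90 libraries and was at least 199-fold lower against the same floor. Vitvi02g00231 had 8137 counts at BBCH77 and 1 at BBCH90, a 5470-fold difference whose 95% counting interval ran from 981 to 216083.

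Of the 7 flowering genes chosen by the study, 1 rose and 3 fell at node 5, beside 9.98% and 22.5% of all tested genes. Their median log2 fold change was -0.32, beside -0.01 for all tested genes. VvTFL1A (Vitvi06g01473), homologue of Arabidopsis TERMINAL FLOWER 1, which keeps shoot meristems indeterminate, had 4.67, 3.04 and 3.49 CPM at BBCH77 and 0.149, 0.161 and 0.293 CPM at BBCH90. Its log2 fold change was -4.21 ± 0.55 (SE, n = 3 per stage, edgeR adjusted p = 2.83e-06), the deepest of the 7. VvVFL (Vitvi17g00021), the grapevine homologue of the floral meristem identity gene LEAFY, fell from 11.6, 10.9 and 8.98 CPM to 2.13, 2.79 and 3.8 CPM. VvTFL1A and VvVFL also served as markers of the bud meristem, and both were detected in every node 5 library.

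VvELF4 (Vitvi09g00117), homologue of an Arabidopsis clock gene, fell from 30.9, 23.9 and 33.5 CPM to 13.4, 13.3 and 12.8 CPM. VvCOL1 (Vitvi04g00665), a CONSTANS-like gene, rose from 157, 148 and 174 CPM to 289, 354 and 399.6 CPM. The log2 fold changes were -1.85 ± 0.21 for VvVFL, -1.16 ± 0.19 for VvELF4 and 1.13 ± 0.13 for VvCOL1 (SE, n = 3 per stage), with edgeR adjusted p values of 7.31e-07, 3.05e-05 and 1.06e-06. The stages did not overlap in any of these 4 genes.

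The remaining flowering genes were not called. VvCO (Vitvi14g01296), homologue of the photoperiod gene CONSTANS, had 26.3, 30.0 and 26.8 CPM at BBCH77 and 31.9, 42.7 and 47.9 CPM at BBCH90, a log2 fold change of 0.56 ± 0.20 that stayed under 2-fold (edgeR adjusted p = 0.02). VvSOC1 (Vitvi15g00774), whose Arabidopsis homologue promotes flowering, had 89, 69.6 and 83.7 CPM and 59.2, 72.7 and 61.9 CPM, and VvFLC (Vitvi01g01673), homologue of an Arabidopsis flowering repressor, had 74.2, 76.8 and 78.1 CPM and 64.4, 58.3 and 71.6 CPM. The levels of VvSOC1 overlapped between the stages, whereas the BBCH90 levels of VvCO were all above and those of VvFLC all below the BBCH77 levels. Log2 fold changes were -0.32 ± 0.14 for VvSOC1 (edgeR adjusted p = 0.0533) and -0.24 ± 0.14 for VvFLC (edgeR adjusted p = 0.14).

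**Figure D2:**
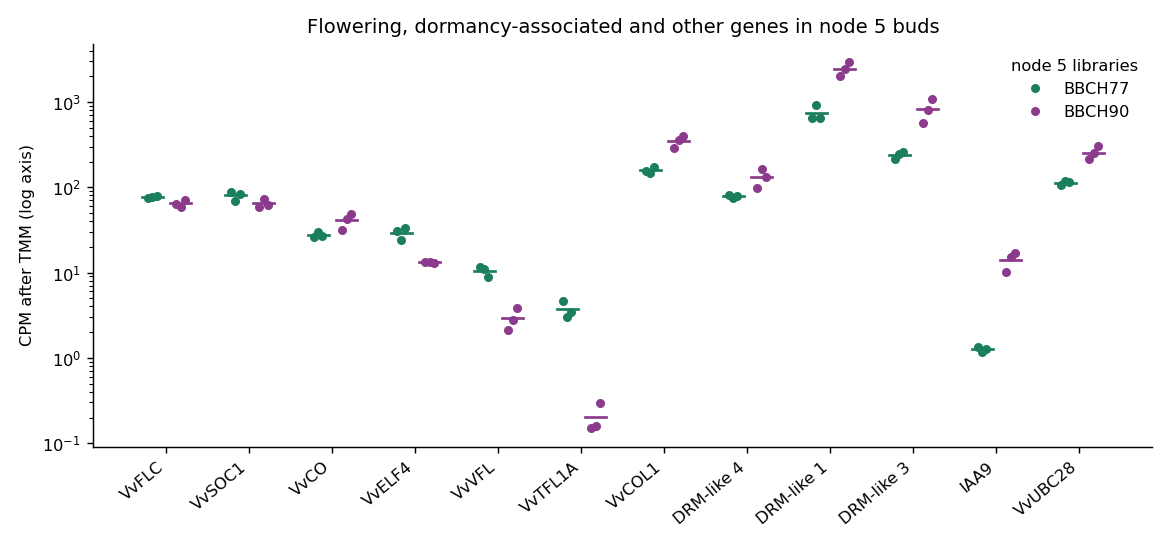
Level of the 7 flowering genes, the 3 dormancy-associated protein-like genes (DRM-like), IAA9 and VvUBC28 in the 6 node 5 libraries, in CPM after TMM on a log axis. Each point is a library, green for BBCH77 and purple for BBCH90, and each bar is the mean of 3. VvTFL1A drops furthest, and VvUBC28 lies higher in all 3 BBCH90 libraries.

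Of the 3 genes annotated as dormancy-associated protein-like, a family known from dormant axillary buds of pea, 2 rose at node 5, beside 9.98% of all tested genes. Dormancy-associated protein-like 1 (Vitvi10g00485) was abundant at both stages, with 642, 923 and 648 CPM at BBCH77 and 2011, 2423 and 2912 CPM at BBCH90. Dormancy-associated protein-like 3 (Vitvi14g00142) rose from 217, 243 and 256 CPM to 572, 804 and 1089 CPM. Their stages did not overlap, and the log2 fold changes were 1.73 ± 0.23 and 1.78 ± 0.19 (SE, n = 3 per stage; edgeR adjusted p = 4.38e-06 and 3.11e-07). Dormancy-associated protein-like 4 (Vitvi09g00050) had 81.3, 74.7 and 79.1 CPM and 99, 166 and 132 CPM, also without overlap, but its log2 fold change of 0.75 ± 0.31 stayed under 2-fold (edgeR adjusted p = 0.0436).

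IAA9, an Aux/IAA repressor of auxin responses, rose from 1.35, 1.16 and 1.28 CPM to 10.2, 15.2 and 17.1 CPM, with no overlap and a log2 fold change of 3.48 ± 0.24 (SE, n = 3 per stage, edgeR adjusted p = 1.76e-09). For 2 other genes that the study followed, replicates scattered widely. ALP1-like (Vitvi11g00140) had 320.4, 44.6 and 40.8 CPM at BBCH77 and 252, 446 and 28.2 CPM at BBCH90, and the transcription factor gene ERF020 (Vitvi18g02191) had 2.11, 0.537 and 1.68 CPM and 1.24, 0.563 and 0.176 CPM. In both the stages overlapped and no change was called (edgeR adjusted p = 0.454 and 0.396). Without BBCH77 node 5 replicate 1, the log2 fold change of ALP1-like went from 0.84 to 2.50 (edgeR adjusted p = 0.0487), past both limits of a call.

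VvUBC28 (Vitvi19g00744), a ubiquitin-conjugating enzyme gene, served as the reference gene of the study's qPCR, which was run on BBCH63 samples and so on neither stage compared here. VvUBC28 had 106, 119 and 115 CPM at BBCH77 and 211, 250.2 and 303 CPM at BBCH90. The stages did not overlap, and VvUBC28 rose by a log2 fold change of 1.17 ± 0.15 (SE, n = 3 per stage, edgeR adjusted p = 1.8e-06). The qPCR values were not analysed here. The primers of VvUBC28 and VvCOL1, from the study's primer table, are shown because they mark the stretch of each gene that was amplified, written 5′ to 3′ in lower case with no part marked.
VvCOL1 forward: ctttgacatggatttctcaggctcc
VvCOL1 reverse: ctggcacgactcccacttctaa
VvUBC28 forward: ctatatgctcgctgctgacg
VvUBC28 reverse: aagccaggcagagacaactc

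Product names were at hand mainly for genes that the study had listed for a shared pattern in these libraries, so counts over them are not independent evidence of a direction. All 138 genes listed as lower at each step of the season fell at node 5 (median log2 fold change -3.61), and all 32 listed as higher at each step rose (median 2.58). The functional groups below consist of members of these lists, chosen partly on this contrast, and nothing is read from the number that was called. Marker genes of green, lignified, phloem and cork tissue could not be matched to product names and were not analysed here, nor were lists for the cell cycle, histones, photosynthesis, cytokinin, gibberellin, abscisic acid and MADS-box genes.

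In the cuticle and wax group, matched by product name, 16 of 16 genes fell, with a median log2 fold change of -3.58. All 16 were on the study's list of genes lower at each step, so this count was fixed by that choice. Many are GDSL esterase/lipases or lipid-transfer proteins, whose part in the cuticle was not tested. Besides the esterase/lipase and MAH1 described above, these included the pair annotated as HOTHEAD, a protein required for an intact cuticle in Arabidopsis, O-acyltransferase WSD1, a wax ester synthase, and 3-ketoacyl-CoA synthase 5, of the enzymes that elongate fatty acids. The cell wall group, also matched by product name, held 2 genes, and both fell. Outside it, classical arabinogalactan protein 9 (Vitvi03g00598) fell (-4.30), whereas early nodulin-75-like (Vitvi05g01943) rose (5.99). These 2 genes therefore do not stand for wall genes in general. Within the group, fasciclin-like arabinogalactan protein 13 (Vitvi12g00248) went from 186, 266 and 198 CPM to 3.08, 4.43 and 14.5 CPM. Its BBCH90 libraries, though all far below BBCH77, spread over a wide range.

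In the phenylpropanoid and flavonoid group 8 of 8 genes fell, with a median log2 fold change of -3.99. Leucoanthocyanidin reductase 1 (Vitvi01g00234), which makes precursors of condensed tannins in grape, had 111, 79 and 136 CPM at BBCH77 and 20.9, 23.4 and 13.1 CPM at BBCH90. VvAOMT (Vitvi01g04438), an anthocyanin O-methyltransferase, went from 10.6, 9.18 and 10.8 CPM to 0.769, 1.31 and 1.46 CPM, and cinnamate beta-D-glucosyltransferase-like (Vitvi03g00568) from 37.5, 42.8 and 45.7 CPM to 7.19, 7.19 and 7.49 CPM. None of the 3 overlapped between the stages. The group also holds 3 chalcone synthase genes, of low level and similar sequence by their shared name, whose separate values are uncertain.

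Sugar genes moved both ways, with 2 higher and 3 lower of 5. Soluble beta-fructofuranosidase (Vitvi16g00713), a vacuolar type of invertase that splits sucrose, fell from 35.4, 34 and 32.6 CPM to 3.92, 2.36 and 2.02 CPM, whereas the sugar transporter SWEET16 (Vitvi14g00149) rose from 14.7, 10.7 and 8.48 CPM to 45.6, 52.4 and 47.9 CPM. Of 4 jasmonate genes, TIFY 10A rose and 3 fell. JAR1 (Vitvi12g00480), which conjugates jasmonic acid with isoleucine, fell from 7.3, 7.01 and 5.18 CPM to 1.39, 1.31 and 1.4 CPM. The other falls were allene oxide synthase 3 (Vitvi03g00391) and allene oxide synthase 3-like (Vitvi03g00393), with means of 0.837 and 0.187 CPM at BBCH77. At these low levels, and with similar names, their separate values are uncertain. Of 2 genes of the heat and desiccation group, the chaperone dnaJ C76 (Vitvi10g01384) rose (2.60) and galactinol-sucrose galactosyltransferase 1 (Vitvi19g00768), of the raffinose pathway, fell (-4.25). Heat stress transcription factor C-1 (Vitvi11g00339), which the group did not include, rose (1.95). The auxin group, matched by product name, held only auxin-induced protein 6B (Vitvi03g01336), which fell (-5.57). Outside that group, auxin-binding protein ABP19a (Vitvi09g01515) also fell (-6.04), whereas IAA9 rose (3.48). An ACC oxidase homologue (Vitvi07g00576) fell (-5.67).

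The study also listed 6 genes as lower at node 5 than at node 2 at every stage, a choice made on these libraries that did not use the step between stages. At node 5, 3 of these 6 fell, beside the 22.5% of all tested genes given above. Wound-induced protein 1 (Vitvi13g00131) went from 206, 172 and 208 CPM to 67.8, 52.4 and 39.4 CPM, a log2 fold change of -1.88. Endochitinase EP3 (Vitvi05g02251) went from 125, 81 and 109 CPM to 38.8, 15.2 and 10.8 CPM (-2.28, edgeR adjusted p = 0.0141). The call of EP3 was lost without BBCH90 node 5 replicate 2 (-2.08, adjusted p = 0.0554) or replicate 3 (-1.96, adjusted p = 0.0615), and with all 27 libraries (-2.28, adjusted p = 0.0539). The last of these fits holds the duplicated BBCH90 node 10 replicate 3, so its loss of the call is not read as a result about EP3. The 1 gene listed as higher at node 5 at every stage was not called.

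At node 2 the same step gave 2512 rises (10.9%) and 5403 falls (23.5%), or 34.4% in all, and 5891 genes were called in the same direction at both nodes. These were 78.8% of the calls at node 5 and 74.4% of those at node 2, while 18 genes were called in opposite directions. A further 1571 genes were called at node 5 and not at node 2, and 2006 at node 2 and not at node 5. The difference between the nodes was called for 27 and 128 of them, beside 0.978% of all tested genes. A call at one node only was not taken as a difference between the nodes. Because the difference test recovered 19% of 2-fold changes in simulated counts, a missing call does not show that the nodes changed alike. Node 10, which shares no library with either, gave a list chosen outside both contrasts. The 2529 genes that rose there (11%) had a median log2 fold change of 1.28 at node 5 and 1.24 at node 2, and the 5270 that fell there (22.9%, or 33.9% with the rises) had -2.12 and -2.13.

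**Figure D3:**
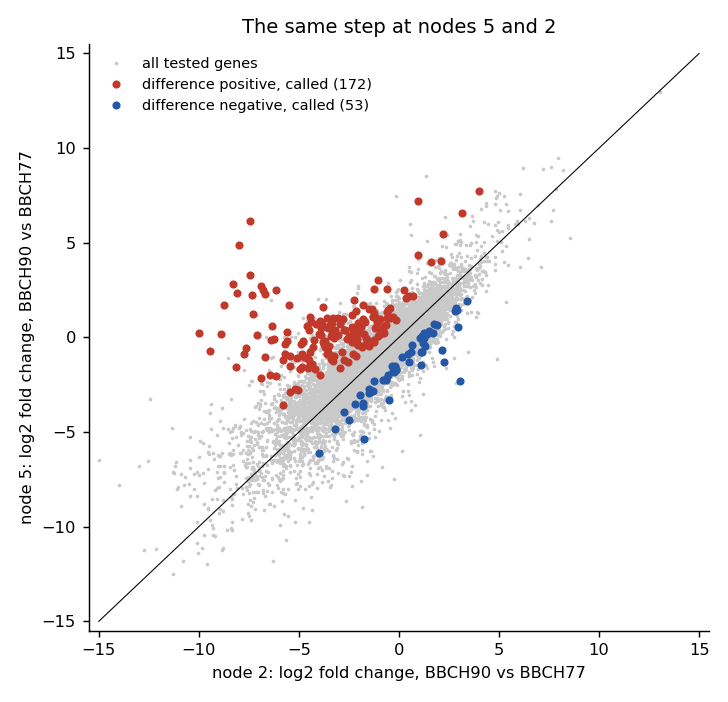
Log2 fold change from BBCH77 to BBCH90 at node 2 (x axis) and at node 5 (y axis) for the 22999 tested genes, with the line of equal change. Red points are the 172 genes whose change was more positive at node 5 and blue points the 53 whose change was more negative, and fitted values of genes at 0 in one group depend on the prior count.

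The difference between the changes at nodes 5 and 2 was tested for every gene as node 5 minus node 2. The change was more positive at node 5 for 172 genes (0.748%) and more negative for 53 (0.23%), 225 in all (0.978%), with edgeR adjusted p values between 0.0394 and 0.048. None of the 189 annotated genes was among them. Of the 189, the study had listed 138 and 32 for moving alike at every node, so their absence is not read as a result. Before adjustment, 4217 tested genes had an edgeR p under 0.05. DESeq2 called 559 and 200 genes (3.85% of the 19694 it tested), of which 220 were shared with the 225 in the same direction.

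These counts turned on single libraries. Without BBCH77 node 2 replicate 3, the library that stood apart, 1051 genes were more positive at node 5 (4.57%) and 797 more negative (3.47%), 1848 in all (8.04%), with 223 of the 225 called in the same direction. Without BBCH90 node 5 replicate 3 the counts were 66 and 16. Without any other single library of the 12, between 0 and 1 gene was called. No gene was called with all 27 libraries (lowest edgeR adjusted p = 0.397, 1802 genes with an unadjusted p under 0.05) or with the 12 libraries alone (lowest adjusted p = 0.264, 2989 genes). The 27 hold BBCH90 node 10 replicate 3, which had the same counts as BBCH63 node 2 replicate 2. The loss of calls in that fit is therefore not read as a result about nodes 5 and 2.

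**Figure D4:**
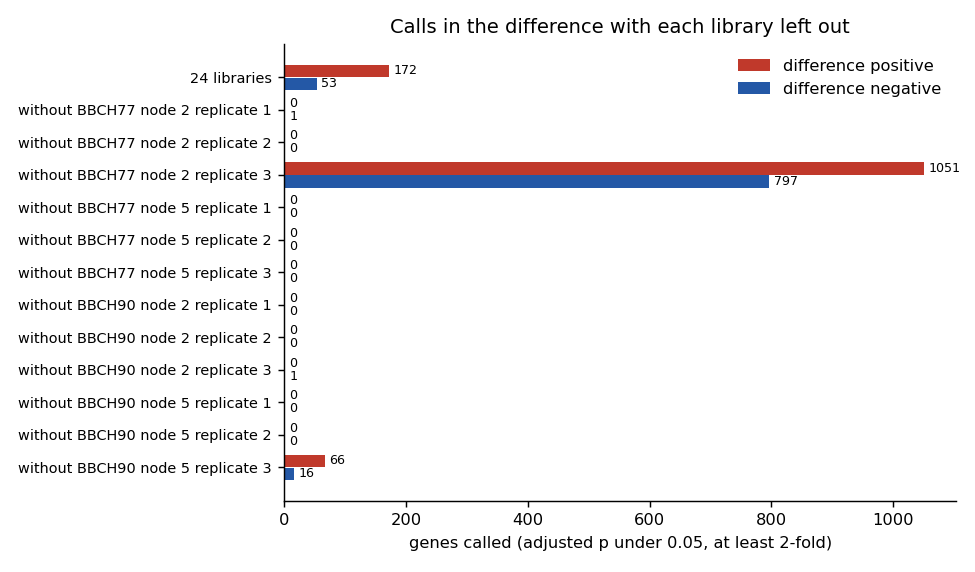
Number of genes called in the difference between the changes at nodes 5 and 2 (x axis) with the 24 libraries of the fit and with each of the 12 libraries of the comparison left out in turn (y axis), red for a more positive and blue for a more negative change at node 5. The bars reach 1051 and 797 genes without BBCH77 node 2 replicate 3 and lie at 0 or 1 without most of the others.

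The 172 genes with a more positive change at node 5 were mostly genes that fell at node 2 and were not called at node 5. Since they were chosen by this difference, their values describe the calls and do not test them. Their median log2 fold change was 0.21 at node 5 and -3.26 at node 2. At node 5, 29 of them rose, 21 fell and 122 were not called, whereas 142 fell at node 2. Their median level at node 5 was between 20.4 and 23 CPM in the BBCH77 libraries and between 19.1 and 26.8 CPM in the BBCH90 libraries, so the stages overlapped there.

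At node 2 the same median was 258, 189 and 24.3 CPM in replicates 1, 2 and 3 of BBCH77 and between 13.2 and 17.2 CPM at BBCH90. Replicate 3 of BBCH77 lay below replicates 1 and 2 in 167 of the 172 genes. At BBCH63, whose libraries entered neither change, the median was between 122 and 133 CPM at node 2 and between 17.6 and 29.5 CPM at node 5. There 109 of the 172 were called lower at node 5, against 3.12% of all tested genes.

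**Figure D5:**
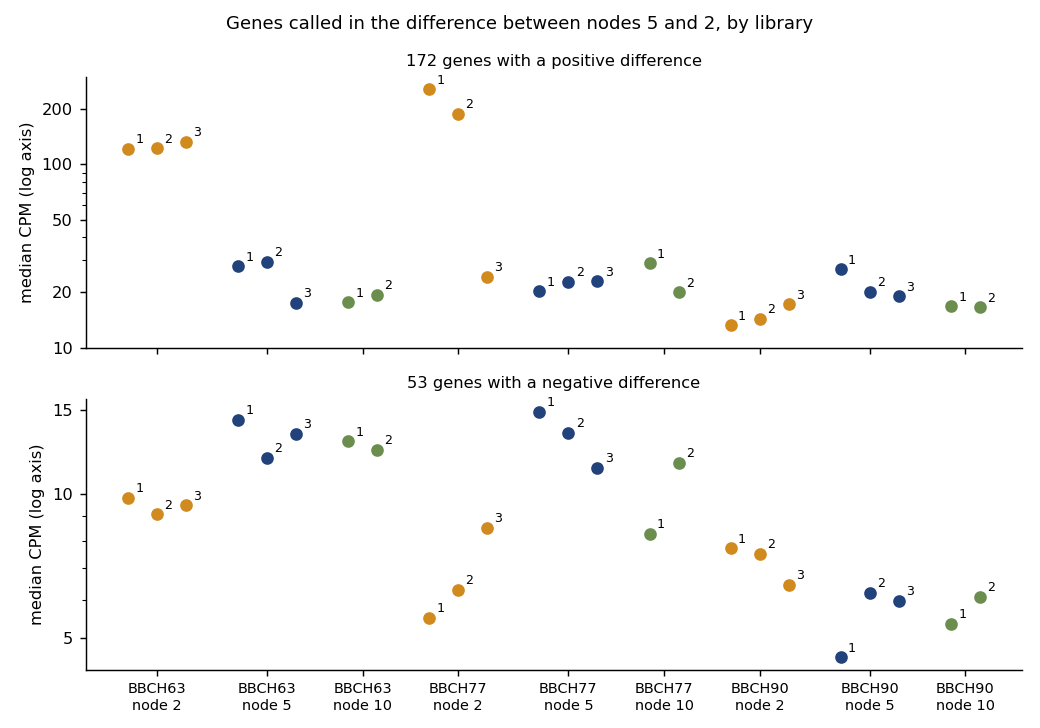
Median level (CPM, log axis) of the 172 genes with a more positive change at node 5 (top) and of the 53 with a more negative change (bottom) in each of the 24 libraries, by stage and node, with the replicate number beside each point. For the 172 genes, BBCH77 node 2 replicate 3 lies at 24.3 CPM, beside the node 5 libraries, and replicates 1 and 2 lie at 258 and 189 CPM.

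The largest positive differences were those of Vitvi12g02350 (13.59 ± 2.51) and Vitvi12g02340 (12.87 ± 2.54), for which no product name was at hand. At node 5 Vitvi12g02350 had 0.041, 0.0839 and 0.0173 CPM at BBCH77 and 8.43, 2.31 and 0.0878 CPM at BBCH90, and at node 2 it had 159, 77.9 and 0.0471 CPM and 1.05, 0.28 and 0.0795 CPM. The node 5 rise lay mainly in BBCH90 replicate 1, without which its log2 fold change of 6.16 became 4.58 (edgeR adjusted p = 0.0842). That of Vitvi12g02340 went from 4.89 to 2.90 (adjusted p = 0.327) without the same library. Between the identifiers Vitvi12g02337 and Vitvi12g02350, a stretch singled out after its values were seen, 7 genes were in the table, 6 were tested, and all 6 were called in the difference, also without BBCH77 node 2 replicate 3. Their median level at BBCH77 was 240.4, 108 and 0.118 CPM in the node 2 replicates and between 0.101 and 0.287 CPM in those of node 5.

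The 53 genes with a more negative change at node 5 had a median log2 fold change of -1.43 there and 0.44 at node 2. At node 5, 29 of them fell, 4 rose and 20 were not called. Their median level at node 5 was between 11.3 and 14.9 CPM at BBCH77 and between 4.56 and 6.22 CPM at BBCH90, without overlap. At node 2 it was between 5.52 and 8.5 CPM at BBCH77 and between 6.47 and 7.72 CPM at BBCH90, and these ranges overlapped. Vitvi01g00441 fell at node 5 from 30.8, 36.4 and 24.3 CPM to 0.67, 0.644 and 0.907 CPM, and at node 2 it had 21.8, 20.1 and 17.2 CPM and 13.6, 2.89 and 1.43 CPM. Its difference was -3.63 ± 0.80, and that of Vitvi07g04165, a gene of low level, was -5.35 ± 1.15 (edgeR adjusted p = 0.0431 and 0.0431).

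Annotated genes were called in the difference when BBCH77 node 2 replicate 3 was left out. They were 3 of the 189 as more positive and 14 as more negative at node 5, beside 4.57% and 3.47% of all tested genes. Of the 14, 11 came from the study's list of genes lower at each step, so nothing is read from these counts. With BBCH77 node 2 replicate 3 in the fit, all 17 had the same sign and none passed edgeR's test. In that test these calls depend on leaving it out. VvELF4 had a log2 fold change of -1.16 at node 5 and -0.37 at node 2 with every library of the fit. Its difference was -0.79 ± 0.26 (edgeR adjusted p = 0.123), and -1.10 ± 0.21 (adjusted p = 0.00179) without replicate 3. For VvTFL1A, with -4.21 at node 5 and -5.65 at node 2, the difference was 1.44 (adjusted p = 0.407) and 1.89 without replicate 3 (adjusted p = 0.041). For dormancy-associated protein-like 4 it was -0.58 (adjusted p = 0.511) and -1.26 (adjusted p = 0.00893). For dormancy-associated protein-like 1 it was 0.71 (adjusted p = 0.247) and 0.95 (adjusted p = 0.025), under 2-fold and so not called.

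Also more negative at node 5 without that library were putative transporter arsB (Vitvi02g00301), geraniol 8-hydroxylase (Vitvi02g01537), of monoterpene metabolism, and protein UPSTREAM OF FLC (Vitvi13g01851). Geraniol 8-hydroxylase fell from 6.01, 2.42 and 5.34 CPM to 0.149, 0.215 and 0.0878 CPM at node 5 and had 0.888, 1.35 and 1.86 CPM and 0.185, 0.168 and 0.212 CPM at node 2. The differences of the 3 genes were -2.65, -2.34 and -1.57 without replicate 3 and -1.50, -2.05 and -1.53 with it. Leucoanthocyanidin reductase 1 (-1.10 without it), JAR1 (-1.19) and dnaJ C76 (-1.06) were in the same set, while arabinogalactan peptide 13 (Vitvi08g02368) was more positive (1.75). With every library of the fit, DESeq2 passed 4 of the 17, namely geraniol 8-hydroxylase (adjusted p = 0.0428), UPSTREAM OF FLC (0.0166), arabinogalactan peptide 13 (0.0497) and a GDSL esterase/lipase (Vitvi18g02146, 0.0341).

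The levels of nodes 5 and 2 were also compared within each stage. At BBCH77, 273 genes were higher (1.19%) and 851 lower (3.7%) at node 5, 4.89% in all, and at BBCH63 there were 391 (1.7%) and 718 (3.12%), 4.82% in all. At BBCH90 no gene was called between the nodes in edgeR's quasi-likelihood test (0%), although 1812 genes were under 0.05 before adjustment. The study, which used DESeq2, did list genes lower at node 5 at BBCH90, among them the 6 listed as lower at every stage. None of these 6 was called here at BBCH90, and DESeq2 was not run on this contrast. Of the 172 genes above, 150 were called lower at node 5 at BBCH77, and of the 53, 29 were called higher there. These contrasts share libraries with the difference itself and are given beside it as levels only.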

How the data were processed

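RNA from latent buds was sequenced by the authors, who removed adaptor sequence, aligned to PN40024.v4 and deposited unnormalized counts of reads for each gene. The submitters' processing notes name FastQC, HISAT2 and HTSeq without versions, and the strand setting of the counting is not given in the sources used here. Libraries were grouped by the node and stage of their labels.

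Tests were made with edgeR 4.0.16 (R 4.3.3). Low genes were removed by filterByExpr (minimum count 10), TMM factors were used, and the quasi-likelihood fit had a mean for each stage at each node over 24 libraries. Benjamini-Hochberg adjustment covered the 22999 genes tested, and calls required an adjusted p under 0.05 and a 2-fold change, for the difference between nodes a 2-fold difference. Standard errors were taken from the size of the log2 fold change and its F statistic (size over root F). The p values measure the spread between pools of buds from 1 vineyard, and totals of 34531620 to 53307172 counts limit genes near 0, so intervals and floors of 3 counts per library cover counting error only.

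On counts simulated for 22999 genes with 200 changed 4-fold, edgeR recovered 96% for the change at node 5, with 9 false calls, and 85.5% for the difference between nodes, with 9. At 2-fold it recovered 33.5% and 19%, or 63% and 27.5% by the adjusted p alone. Simulated replicates were drawn independently, and none stood apart as BBCH77 node 2 replicate 3 did. The changed genes were not drawn from those of lowest mean level, and all other genes were left unchanged, whereas 7480 were called at node 5. These shares may therefore not hold for genes of low level, or for the difference between nodes in the real libraries.

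Named genes were every gene in the study's flowering, dormancy and single-gene lists, the 8 largest annotated rises and falls at node 5 and 2 of each without annotation (at least 10 CPM at the higher stage, stages not overlapping), the largest called differences between nodes (at least 5 CPM in a group), and up to 2 rises and 2 falls per functional list. The 17 annotated genes called without BBCH77 node 2 replicate 3, and Vitvi12g02337, were added after their values were seen. The members and lists were chosen with earlier results of these data known.

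Alternatives were DESeq2 1.42.0, its size factors or upper-quartile factors in edgeR, all genes with a count, all 27 libraries, a replicate block, the compared groups alone, an adjusted p limit of 0.01, and each library of the groups compared left out in turn. A fit of the BBCH77 and BBCH90 libraries alone was chosen after seeing the data. The labels give an extraction kit other than the one in the study's methods, and which was used is not known.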

Additional observations from a re-analysis of the deposited data

Results flagged for a closer look

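The test of the difference between the changes at nodes 5 and 2 called 172 genes as more positive at node 5 and 53 as more negative. Of the genes named in the text, 5 were singled out by this test, on the log2 scale of node 5 minus node 2 and with Benjamini-Hochberg adjusted p values from edgeR. The difference was 13.59 for Vitvi12g02350 and 12.87 for Vitvi12g02340 (adjusted p = 0.0394 for both). It was 8.97 for Vitvi12g02337 (adjusted p = 0.0431), a gene at the end of a run of identifiers that was chosen after its values were seen. It was -5.35 for Vitvi07g04165 and -3.63 for Vitvi01g00441 (adjusted p = 0.0431 and 0.0431). Without BBCH77 node 2 replicate 3 the differences were 14.18, 13.46, 9.57, -6.00 and -3.55 in the same order. With 3 libraries in each group, single libraries were not tested for lying apart within their group.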

How the results depend on the processing

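The numbers of genes that rose and fell at node 5, and at node 2, stayed within 1.5 times of those given in every alternative. Leaving out 1 library gave 2173 to 2418 rises and 4786 to 5272 falls at node 5, and 2402 to 2894 rises and 5093 to 5414 falls at node 2. Upper-quartile factors moved the median log2 fold change over all genes at node 5 from -0.01 to -0.12. The counts for the difference between nodes, 172 more positive and 53 more negative, were not stable. They were 559 and 200 with DESeq2. With all 27 libraries they were 0 and 0, but that fit holds the duplicated BBCH90 node 10 replicate 3 and is no check on nodes 5 and 2. The counts were also 0 and 0 with only the groups compared and with an adjusted p limit of 0.01. The same held with only the BBCH77 and BBCH90 libraries, a fit chosen after seeing the data, and with a replicate block. In that blocked fit 4438 genes had an unadjusted p under 0.05, and the lowest edgeR adjusted p was 0.0592. Same-numbered libraries of node 5 at BBCH77 and BBCH90 had correlations of 0.0994, -0.194 and 0.127 in their deviations from the group means, and those of node 2 had 0.232, -0.0227 and 0.12. Between nodes 5 and 2 they were 0.144, -0.0167 and 0.254 at BBCH77 and 0.454, -0.0572 and 0.327 at BBCH90. Not every pair was over 0.1, so the numbers were not taken to pair the samples. The block gave 2307 rises and 5282 falls at node 5. Leaving out 1 library gave 0 to 1051 more positive and 0 to 797 more negative genes, the highest without BBCH77 node 2 replicate 3. The cause was not tested.

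For single genes, 824 values of the change at node 5 kept their direction and side of the threshold, 30 lost and 12 gained an adjusted p under 0.05, and none changed direction. Of the values of the difference, 552 kept both, 58 lost and 22 gained it, and 8 changed sign, with neither value past the test. With 1 library left out these differences ran from -0.26 to 0.081 for VvCO, from -0.14 to 0.32 for dormancy-associated protein-like 3, from -2.77 to 0.038 for ERF020, from -0.073 to 2.65 for ALP1-like and from -1.06 to 0.062 for dnaJ C76.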
